A study of Homo sapiens with 3 samples.

Results

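The genes described here are those of the lysosomal proton pump, the cathepsin proteases and the LAMP membrane proteins. The rule that picks them reads gene names among the protein-coding genes and no measured value: names beginning with ATP6V0 or ATP6V1, the accessory genes ATP6AP1 and ATP6AP2, the cathepsins with a one-letter suffix, and LAMP1 to LAMP5. The rule found 44 of the 78932 genes in the tables, of which 20116 are protein-coding: 13 genes of the V1 sector of the pump, 9 of the V0 sector, 2 accessory genes, the readthrough gene ATP6V1G2-DDX39B, 15 cathepsins and 4 LAMP genes. RNA was measured in 3 libraries of iCell GlutaNeurons (iGluta), wild-type and untreated human glutamatergic neurons that FujiFilm Cellular Dynamics makes from induced pluripotent stem cells, kept 3 weeks in culture. All 3 libraries come from this 1 commercial line, and the series has no other group. Nothing in the labels places the triplicates in separate cultures, so each SD and p-value covers the variation among these 3 samples alone, and that variation could be technical.

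The pump, called the V-ATPase, is a rotary machine of the lysosome, the endosome and the Golgi. Its V1 sector in the cytosol splits ATP and turns a rotor, and its V0 sector in the membrane carries protons inward. In neurons the same pump also acidifies synaptic vesicles, and the proton gradient drives transmitter loading. Several subunits exist as isoforms from separate genes, some broadly expressed, some enriched in brain and some found mainly in kidney, bone-resorbing cells or testis. Cathepsins are proteases, most of which work in the acid lumen that the pump makes, and LAMP proteins line the lysosomal membrane.

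The 3 libraries held 34732725 to 60092991 estimated counts. Replicate 3 stood apart: transcripts of the mitochondrial genome took 10.6% of its TPM (each transcript as a length-corrected share of its library) against 4.25 and 4.01% in replicates 1 and 2. A larger share for some transcripts lowers the TPM of all others. The common biological coefficient of variation over all genes was 0.188, and 0.12 without replicate 3. All 10 pan-neuronal marker genes were above 1 TPM in the test described next, with STMN2 at 2449 ± 327 TPM (SD, n = 3, as throughout) and TUBB3 at 1592 ± 225. None of the 11 markers of microglia and macrophages was above it by limma, at an adjusted or an unadjusted p, since each had a mean under 1 TPM, and their summed level was 1.48, 1.37 and 0.51 TPM in replicates 1, 2 and 3. Fewer cells of a type and less RNA per cell cannot be told apart in such bulk samples.

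With 1 group there was no contrast between conditions, so each level was set against a bar of 1 TPM with limma, and p-values were adjusted over all 38992 genes with any TPM above 0. Of the 44 genes 28 were above the bar, 8 were below it, 6 were undecided and 2 (CTSF and CTSG) were listed at 0 in every library and were not tested. Among all genes tested 40.6% were above and 45.1% below, and among the 17804 protein-coding genes tested 71.2% were above and 19.9% below. Counting tested genes alone, 66.7% of the 42 members were above. Counting untested genes too, 63.6% of the 44 members and 63.0% of the 20116 protein-coding genes were above, so the members' share was near the background. Within the module the levels were far apart. A mean over 100 TPM was reached by 18 genes, while the median over all 44 was 27.6 TPM and that over protein-coding genes tested was 12.5 TPM.

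Many lysosomal genes are known to carry a palindromic motif near their start, the target of the transcription factors TFEB and TFE3, whose core is CACGTG. RefSeq promoters (GRCh38.p14) were matched for 30 of the 44 genes, and the 250 bases before each start were searched for CACGTG, which reads the same on both strands. The letters occurred in 8 of the 30, against 6.49% of 27305 promoters of the same length. The longer form TCACGTGA, which contains CACGTG, occurred in 4 of the 30, against 0.89%. The sequences below are shown because they place members of the pump, the protease and the membrane groups beside CTSF, which holds the letters and has no count. Each is 26 bases, 5′ to 3′ on the gene's strand, with CACGTG in capitals.
ATP6V0D1 (chr16:67481201-67481226, minus strand): cccttatggtCACGTGaggcgcttgc
ATP6V1G1 (chr9:114587701-114587726, plus strand): gctgtgcggtCACGTGacaacggggg
CTSA (chr20:45891300-45891325, plus strand): cgccggagttCACGTGactcgtacac
CTSD (chr11:1763959-1763984, minus strand): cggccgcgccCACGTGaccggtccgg
LAMP1 (chr13:113297201-113297226, plus strand): cccgcgggatCACGTGacgcccgggc
CTSF, far copy (chr11:66568714-66568739, minus strand): atataacaagCACGTGatagaggtca
CTSF, near copy (chr11:66568642-66568667, minus strand): ctgcgcgcccCACGTGcctcctgtaa

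In these windows the motif ended 53 bases before the start of ATP6V0D1, 52 before ATP6V1G1, 41 before CTSD, 22 before LAMP1 and 19 before CTSA, and 117 and 45 before CTSF. LAMP1 held 5 copies of CACGTG in its 250 bases, more than any other member matched. Of the 8 genes with the letters 7 were above the bar, and CTSF was listed at 0. Of the 22 matched genes without them 12 were above, 5 below, 4 undecided and CTSG was listed at 0. Over all protein-coding genes, untested ones counted too, 63.0% were above, and this share was not split by the letters. Members without a matched promoter are in neither count. Among them ATP6V1A, ATP6V1B2, CTSB and LAMP2 were above and ATP6V0D2, CTSO and CTSW below. Whether the letters go with the level was not tested. A match describes letters and shows no binding. Of the factors themselves, TFE3 was at 41.8, 44.0 and 49.5 TPM in replicates 1, 2 and 3. TFEB, chosen after its value was seen, was at 0.63, 0.55 and 1.4 TPM and undecided.

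The V1 sector, which binds and splits ATP, was expressed through 1 gene for nearly every subunit. Of its 13 genes 10 were above 1 TPM, 2 were below (ATP6V1B1 and ATP6V1G3) and ATP6V1C2 was undecided. The share above was 76.9%, near the 71.2% of protein-coding genes tested. ATP6V1A, the catalytic subunit, was at 184, 231.9 and 189 TPM in replicates 1, 2 and 3. Its partner in the hexamer, ATP6V1B2, the B isoform prominent in brain, was at 297, 314 and 296 TPM. Every library thus gave more B2 than A per length of transcript. ATP6V1F, a small subunit of the rotor, was the highest gene of the sector at 467, 419 and 441 TPM. ATP6V1D, the rotor shaft, was at 136.6, 139 and 129 TPM, and ATP6V1H, a regulatory subunit, at 106, 111 and 96.2. ATP6V1E1, part of the stalks that hold the sector in place, was at 197, 210.3 and 175 TPM. ATP6V1C1, whose release accompanies disassembly of the pump, was at 91.2, 120.0 and 100.9.

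The V0 sector, the proton channel in the membrane, held the most abundant genes of the module. Of its 9 genes 7 were above 1 TPM (77.8%, against 71.2% of protein-coding genes tested) and 2 were below (ATP6V0A4 and ATP6V0D2). The ATP6V0A4 call was lost with genes at 0 included in the fit (limma, adjusted p = 0.061). ATP6V0C, which encodes the proteolipid of the rotating ring, was at 1030, 881.7 and 974.7 TPM, a rank of 111 among protein-coding genes. Its levels in the 3 libraries did not overlap with those of any other member. ATP6V0B, the related proteolipid present beside it in the ring, was at 536.7, 510.3 and 474.6 TPM. ATP6V0A1, the a isoform enriched in neurons and present on synaptic vesicles, was at 289, 289.5 and 243 TPM. ATP6V0D1, which couples the ring to the rotor, was at 348, 321 and 314 TPM. In replicate 3 the TPM of ATP6V0A1, ATP6V0B and ATP6V0D1 was each the lowest of the 3, while ATP6V0C was lowest in replicate 2. With counts scaled to library size alone (CPM), only ATP6V0A1 of these genes stayed lowest in replicate 3. ATP6V0B (233.8, 202.7 and 208.1 CPM) and ATP6V0D1 (248.6, 214.5 and 227.9) were then lowest in replicate 2, as was ATP6V0C. The part of the larger mitochondrial share of replicate 3 in the TPM levels was not tested.

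**Figure D1:**
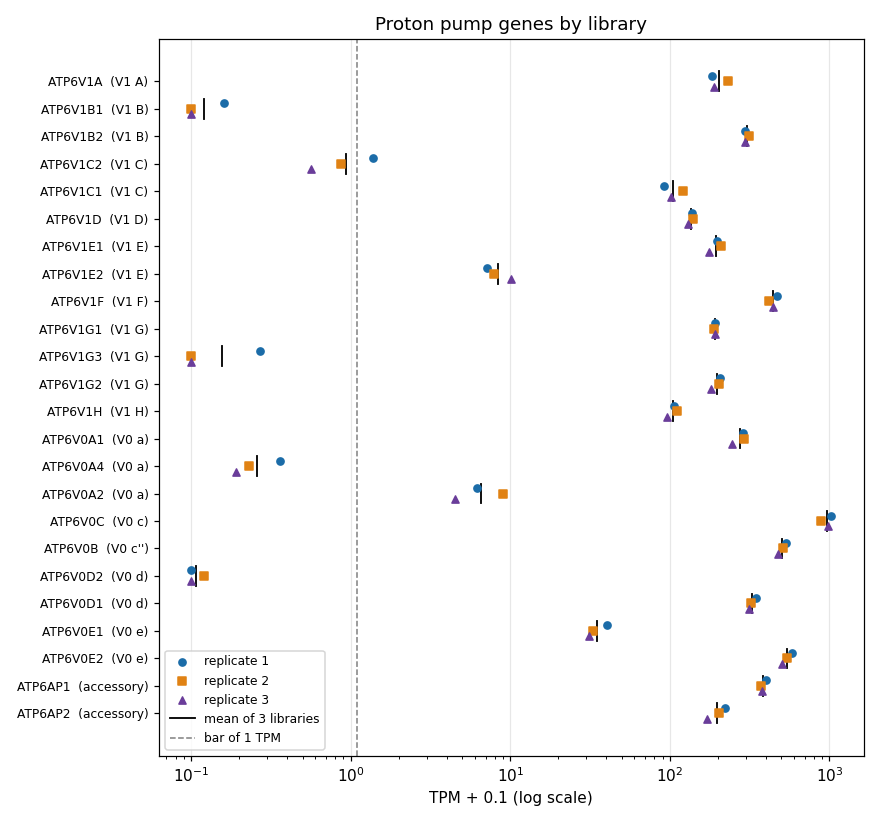
TPM plus 0.1 on a log axis for the 22 subunit genes of the pump and its 2 accessory genes, with a symbol per library, a vertical tick at the mean and a dashed line at the bar of 1 TPM. The leading gene of each subunit lies far right of the bar, ATP6V0A2 and ATP6V1E2 lie between 4.4 and 9.99 TPM, ATP6V1C2 straddles the bar, and ATP6V1B1, ATP6V1G3, ATP6V0A4 and ATP6V0D2 lie left of the bar in every library.

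Summed over isoforms, the subunits formed a graded order. The c proteolipid (962 ± 74.9 TPM) was followed by e (580 ± 44.1), the second proteolipid c'' (507 ± 31.2), F (442 ± 24.4) and G (387 ± 13.9), and the ranges of these 5 over the libraries did not overlap. Below them d (328 ± 17.8), B (302 ± 10.3) and a (284 ± 28.9) overlapped with their neighbours in the order. E (202 ± 16.5) and A (202 ± 26.3) overlapped, D (135 ± 5.43) stood alone, and C (105 ± 14.5) and H (104 ± 7.53) closed the order with overlapping ranges. The V1 genes summed to 1886, 1945 and 1810 TPM in replicates 1, 2 and 3, and the V0 genes to 2836, 2586 and 2549. In each library V1 was lower, with a log2 ratio of V1 over V0 of -0.50 ± 0.09 (two-sided exact permutation p = 0.25 by sign flips, the smallest that 3 libraries allow). On CPM, which scales counts to library size without dividing by length, it was -0.13 and within 2 SD of 0.

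For 6 of the 7 subunits with several genes, 1 isoform took over 90% of the TPM in every library. The most uneven were d and B, whose intervals overlap, so their order cannot be told. In d, ATP6V0D2, the isoform of kidney and osteoclasts, had 1 of 31018 counts over the 3 libraries, 0.00322% (exact Clopper-Pearson 95% interval 0.000082 to 0.018%). Like all intervals here, it covers counting error alone. ATP6V1B1, the kidney and inner ear isoform of B, had 2 of 57496 counts, 0.00348% (0.000421 to 0.0126%). ATP6V0A4, the kidney isoform of a, had 22 of 70857 counts, 0.0311% (0.0195 to 0.047%). The 5 marker genes of kidney intercalated cells, the cells best known for these isoforms, had means under 1 TPM, so 0 were above the bar by limma at an adjusted or an unadjusted p (4 were below), and a summed level of 1.38, 0.85 and 0.58 TPM.

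Within the a subunit ATP6V0A1 made up 96.7, 95.8 and 97.1% of the TPM. ATP6V0A2, which serves the Golgi and endosomes, was at 6.11, 8.92 and 4.4 TPM, a share of 2.25 ± 0.625%. TCIRG1, the a3 isoform that osteoclasts use and which the naming rule does not take in, had 1.17 ± 0.042%. The log2 ratio of ATP6V0A1 over ATP6V0A2 was 5.43 ± 0.39, and a linear ratio of 47.3, 32.5 and 55.3 in replicates 1, 2 and 3 (exact permutation p = 0.25). In the e subunit ATP6V0E2, the isoform enriched in brain, was at 586, 541 and 508 TPM against 40.1, 32.95 and 30.9 for the ubiquitous ATP6V0E1. ATP6V0E2 thus held 94.0 ± 0.383% of the subunit, a log2 ratio of 3.98 ± 0.10 in 3 of 3 libraries (exact permutation p = 0.25). ATP6V0E2 overlaps an antisense gene, ATP6V0E2-AS1 (16.2, 18.4 and 15.2 TPM), and both had counts that were not whole, so each shared reads with some other gene; which one the tables do not show.

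The G subunit was the exception. ATP6V1G2, the isoform described in neurons, was at 207, 202 and 180.2 TPM, and the ubiquitous ATP6V1G1 at 192, 188 and 192. Their order changed between libraries: G2 was ahead in replicates 1 and 2 and behind in replicate 3. The log2 ratio of 0.04 ± 0.11 (0.11, 0.10 and -0.09) was within the spread (exact permutation p = 0.5). Leaving out replicate 3 gave 0.10, over 2 SD from 0, and CPM gave -0.18. ATP6V1G2 had 50.7 ± 1.93% of the subunit, ATP6V1G1 49.3 ± 1.94%, and ATP6V1G3, the kidney isoform, 1 of 33453 counts. The readthrough gene ATP6V1G2-DDX39B, which shares the exons of ATP6V1G2 on chromosome 6, was at 1.36, 1.45 and 1.82 TPM and undecided (limma, adjusted p = 0.0805). It was above the bar with genes of a mean count of at least 10 (adjusted p = 0.0461) and with genes at 0 included (0.0362). Both genes had counts that were not whole, so ATP6V1G2 is less certain than ATP6V1G1, whose counts were whole.

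**Figure D2:**
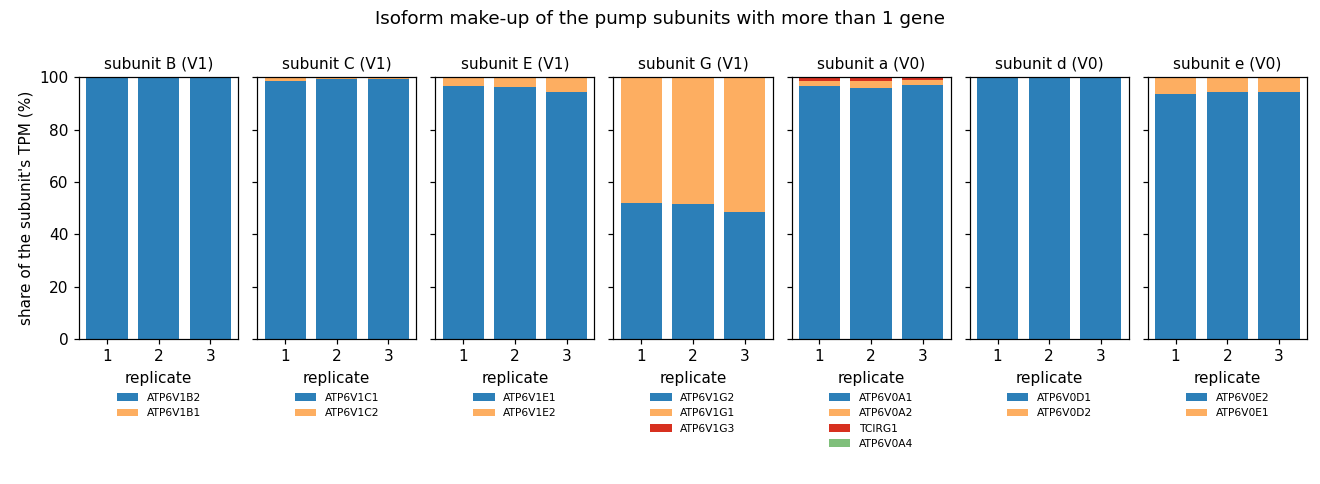
Share of each isoform in the summed TPM of its subunit, in percent, as stacked bars for replicates 1, 2 and 3, for the 7 subunits with more than 1 gene. A single isoform fills over 90% of 6 subunits, while G is divided at 51.9, 51.7 and 48.5% ATP6V1G2.

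Among the remaining pairs, ATP6V1C1 held 99.2 ± 0.487% of the C subunit, and ATP6V1C2, an isoform of kidney and lung, was at 1.27, 0.77 and 0.46 TPM. ATP6V1E2, the isoform known from testis, was nevertheless above the bar at 7.01, 7.76 and 9.99 TPM (limma, adjusted p = 4.96e-07) and held 4.13 ± 1.1% of the E subunit. Replicate 3 had the highest ATP6V1E2 and the lowest ATP6V1E1. ATP6V1E2 overlaps RHOQ on chromosome 2 and had counts that were not whole. The log2 ratio of ATP6V1E1 over ATP6V1E2 was 4.55 ± 0.38 (exact permutation p = 0.25).

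Both accessory genes were well above the bar. ATP6AP1, which encodes a chaperone-like subunit also called Ac45, was at 403, 371 and 376 TPM. ATP6AP2, the (pro)renin receptor, was at 221, 203 and 171 TPM, below ATP6AP1 in each library. The log2 ratio of ATP6AP2 over ATP6AP1 was -0.96 ± 0.16 (exact permutation p = 0.25). Leaving out ATP6AP1L, a transcribed pseudogene at 1.24, 1.72 and 3.01 TPM, the 27 pseudogenes named for a pump or cathepsin gene summed to 0.29, 0.41 and 0 TPM, and 5 of them had any count.

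The proteases were led by a small set of broadly expressed cathepsins. Of the 8 genes classed as broadly expressed 5 were above 1 TPM, CTSO was below, CTSZ was undecided and CTSF was listed at 0. The share above, 62.5%, was near the 63.0% of all protein-coding genes, untested ones counted too. CTSD, the main aspartic protease of lysosomes, was at 162, 146 and 174 TPM. CTSB, a cysteine protease, was at 152, 148 and 171 TPM, so the ranges of the leading pair overlapped. Their log2 ratio was 0.03 ± 0.06 (exact permutation p = 0.5), and -0.35 on CPM. CTSL, another cysteine protease, followed at 59.2, 53.0 and 57.3 TPM. CTSB exceeded CTSL in each library, with a log2 ratio of 1.47 ± 0.11 (exact permutation p = 0.25). CTSA, the carboxypeptidase that also protects beta-galactosidase and neuraminidase, was at 22.1, 20.2 and 19.4 TPM. CTSA overlaps PLTP on chromosome 20, and the strand setting of the authors' counting is not known, so its reads are less certain.

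Further down, CTSH, an aminopeptidase, was at 3.46, 3.57 and 2.44 TPM, and CTSZ, a carboxypeptidase, at 1.45, 1.41 and 1.07. CTSZ was undecided on TPM (limma, adjusted p = 0.286) and above the bar on CPM, with a log2 difference of 2.15. It had 202, 299 and 154 counts, which divided by transcript length came out near the bar. CTSO had 3, 3 and 6 counts, or 0.04, 0.03 and 0.14 TPM, and was below the bar (limma, adjusted p = 0.000111).

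CTSF had no count in any library. This cysteine protease is known to be abundant in brain, and its loss causes an adult form of neuronal ceroid lipofuscinosis. The gene (ENSG00000174080.12) lies on chromosome 11 from 66563464 to 66568606 in GRCh38.p14 and overlaps no other RefSeq gene. A count of 0 allowed up to 3 counts per library, which is 0.073, 0.0499 and 0.0864 CPM in replicates 1, 2 and 3. Of all protein-coding genes 11.4% had no count in any library. Its neighbours within 60000 bases were mixed. DPP3 (50.04 ± 11.6 TPM), BBS1 (41.7 ± 2.88), RBM14 (41.0 ± 9.62), CCS (36.3 ± 4.56), RBM14-RBM4 (10.8 ± 3.98) and ZDHHC24 (9.59 ± 0.86) were above the bar. The nearest protein-coding genes on either side were low: ACTN3, a muscle gene, was at 0.05 ± 0.0265 TPM and below, and CCDC87 was at 0.947 ± 0.0611 and undecided. Whether the 0 lies with these cells, this line or the authors' counting was not tested.

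Of the 5 immune-type cathepsins CTSC was above the bar, CTSS was undecided, CTSE and CTSW were below and CTSG was listed at 0. The 5 genes of this set summed to 8.18, 7.6 and 5.21 TPM, against 400.5, 372 and 426 for the broad set. The log2 ratio of the broad over the immune-type sum was 5.84 ± 0.42, positive in 3 of 3 libraries (exact permutation p = 0.25). CTSD and CTSB made up most of the broad sum and CTSC most of the other. The ratio thus rests on few genes, and CTSH, CTSZ, CTSO and CTSF of the broad set lay below CTSC in each library. CTSC, which activates the serine proteases of immune granules and is also found outside immune cells, was at 5.65, 5.88 and 4.37 TPM (limma, adjusted p = 4.9e-06). CTSS, a protease of antigen-presenting cells and microglia, was at 2.34, 1.38 and 0.81 TPM and undecided (limma, adjusted p = 0.268). Its counts were 81, 66 and 24. CTSE (0, 2 and 1 counts) and CTSW (5, 2 and 0 counts), the latter of cytotoxic lymphocytes, were below. CTSG, a granule protease of neutrophils, had no count in any library.

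Markers of immune cells were measured beside these genes. Of the 11 microglial and macrophage markers 6 were below the bar, CSF1R was undecided at 0.78, 0.94 and 0.32 TPM, and AIF1, C1QA, C1QB and TYROBP had no count. CSF1R, which made up most of the summed markers, and CTSS were each lowest in replicate 3. From replicate 1 to 2 CSF1R rose and CTSS fell in TPM. CSF1R had only 11, 22 and 4 counts in replicates 1, 2 and 3, so its changes between libraries are uncertain. Of the other cathepsins CTSA, CTSC, CTSH, CTSK, CTSW and CTSZ were lowest in replicate 3 too, and CTSB, CTSD, CTSO and CTSV were highest there. The part of such cells in the CTSS level was not tested. Of 8 markers of cytotoxic lymphocytes and neutrophils 2 were above the bar, AZU1 and PRTN3, 4 were below, and ELANE and CD3E had no count.

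CTSK and CTSV are known from other tissues. CTSK, the collagen-degrading protease of osteoclasts, was above the bar at 3.63, 4.19 and 2.23 TPM (limma, adjusted p = 0.000314). Of the 6 osteoclast markers 1 was above, the acid phosphatase gene ACP5, at 1.31, 1.69 and 11.04 TPM. That call was lost without replicate 3, with a pseudocount of 1 and with genes at 0 included. CTSK was lowest in replicate 3, and the part of osteoclast-like cells in its level was not tested. CTSV, a relative of CTSL known from thymus and testis, was at 0.42, 0.32 and 1.65 TPM. Replicate 3 was 4.46 times the mean of the others, and without it CTSV was below the bar (limma, adjusted p = 0.0352). CTSL and CTSV are close relatives. CTSL had counts that were not whole in replicate 2, and CTSV had none.

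**Figure D3:**
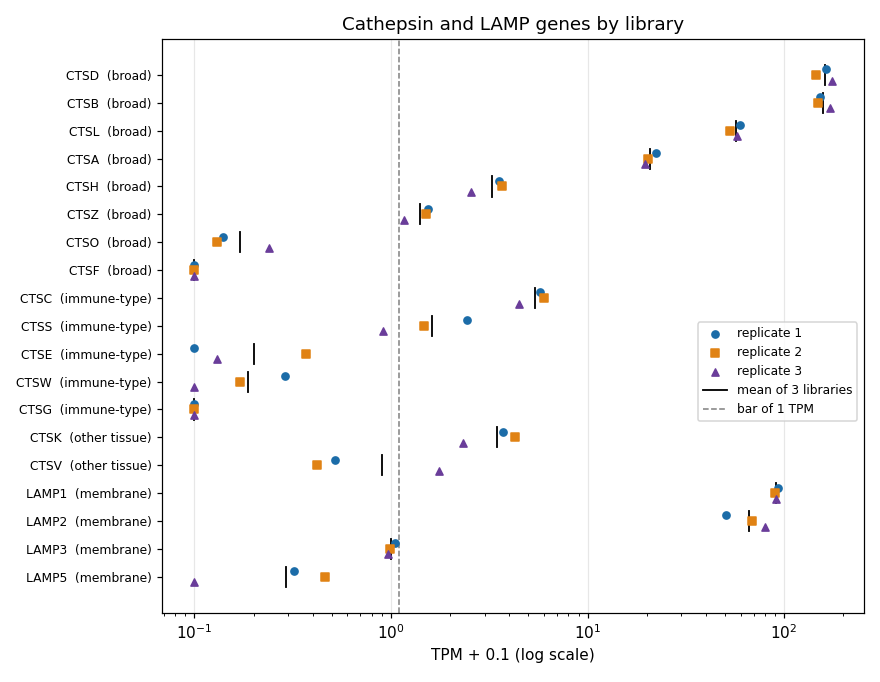
TPM plus 0.1 on a log axis for the 15 cathepsin and 4 LAMP genes, with a symbol per library, a vertical tick at the mean and a dashed line at the bar of 1 TPM. CTSD and CTSB lie above 140 TPM in each library, 4 of the 5 immune-type genes lie near or left of the bar, and CTSF lies at 0 beside CTSG.

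Of the LAMP genes the broadly expressed pair was high. LAMP1, the most common glycoprotein of the lysosomal membrane, was at 93.0, 89.3 and 91.0 TPM, the steadiest of the 4. LAMP2, needed for the fusion of autophagosomes with lysosomes and for chaperone-mediated autophagy, was at 50.5, 68.7 and 79.9 TPM. On TPM LAMP1 exceeded LAMP2 in 3 of 3 libraries, by 1.84, 1.3 and 1.14 times. Their log2 ratio, 0.48 ± 0.36, did not reach 2 SD (exact permutation p = 0.25). It was 0.28, over 2 SD from 0, when replicate 1 was left out. On CPM LAMP1 was ahead in replicates 1 and 2, and LAMP2 in replicate 3 (134.9 against 124.9). LAMP3, the form of mature dendritic cells, was at 0.95, 0.89 and 0.87 TPM and undecided. LAMP5, a brain-specific form and a marker of one class of cortical interneurons, was at 0.22, 0.36 and 0 TPM and below (limma, adjusted p = 0.00414). It had 8, 17 and 0 counts, and the call was lost with genes at 0 included in the fit (limma, adjusted p = 0.12).

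The spread between libraries was small for the abundant members. Among the 23 members over 10 TPM the median biological coefficient of variation (edgeR on the estimated counts) was 0.116, against 0.129 over 9520 protein-coding genes at that level. The highest values of the 34 members fitted were those of CTSV (0.522), CTSS (0.354) and ATP6V1C2 (0.31). Over the 31 members with a mean of at least 1 TPM, the median log2 difference of each library from the mean of the others was 0.11, 0.02 and -0.12 in replicates 1, 2 and 3. The same median over 13406 protein-coding genes was -0.003, 0.12 and -0.12. In replicate 3 members and protein-coding genes thus moved alike, and with mitochondrial transcripts left out the medians there were -0.02 and -0.02.

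**Figure D4:**
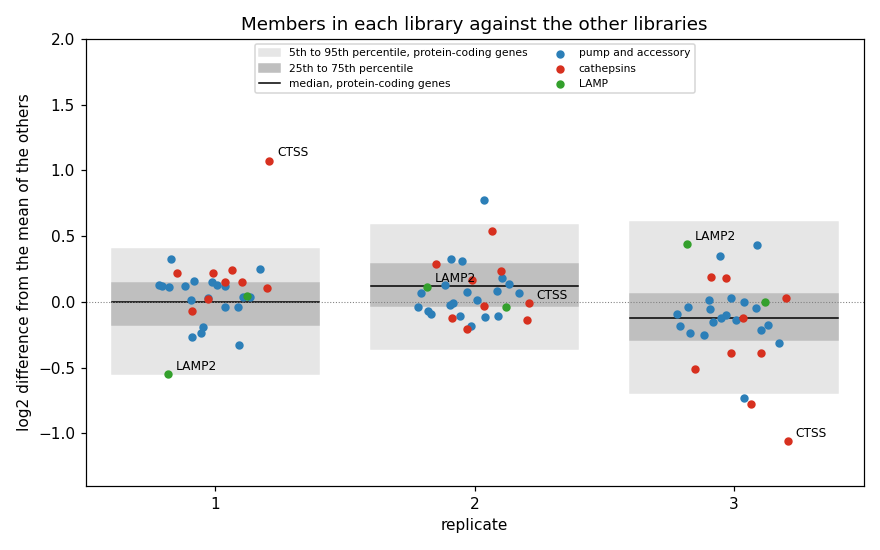
Log2 difference of each library from the mean of the others for the 31 members with a mean of at least 1 TPM, over grey bands for all protein-coding genes at that level. CTSS runs from 1.07 in replicate 1 to -1.06 in replicate 3 and LAMP2 from -0.55 to 0.44, and the pump gene ATP6V0A2 from 0.77 in replicate 2 to -0.73 in replicate 3.

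The rest of the lysosomal system was measured with 7 lists of 92 genes. Of these 85 were above 1 TPM, 1 was below, 2 were undecided and 4 were listed at 0 and not tested. Of all protein-coding genes, untested ones counted too, 63.0% were above. All 30 lysosomal hydrolases and their helpers were above, led by PSAP (1294 ± 57.8 TPM), which gives the saposins that activate sphingolipid enzymes, IDS (333 ± 52.6), an enzyme of heparan and dermatan sulfate breakdown, the ceramidase ASAH1 (121 ± 3.18) and the acid phosphatase ACP2 (76.6 ± 5.76). Of 20 membrane and transport genes 19 were above, led by the tetraspanin CD63 (407 ± 22.2 TPM), the glucocerebrosidase carrier SCARB2 (187 ± 19.4), LAPTM4A (120.3 ± 21.4) and LAPTM4B (77.0 ± 2.03). The undecided gene was CD68 (1.25 ± 0.31 TPM), a LAMP relative of macrophages, chosen after its value was seen.

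All 11 genes of pump assembly and its partners were above the bar. They were led by RNASEK (569 ± 49.1 TPM), a small membrane protein found with the pump, OXR1 (119 ± 12.1), ROGDI (104.5 ± 12.5) and CCDC115 (86.9 ± 9.47), an assembly factor. All 9 genes of sorting to lysosomes were above, among them the mannose 6-phosphate receptor gene M6PR (72.4 ± 7.61 TPM), GNPTAB (64.3 ± 8.16), which makes the mannose 6-phosphate tag, and the adaptors GGA1 (49.4 ± 3.01) and GGA3 (44.9 ± 4.73). All 9 genes of nutrient sensing at the lysosome were above, led by LAMTOR4 (174 ± 12.4 TPM), RRAGA (167 ± 12.01), LAMTOR1 (147 ± 7.49) and LAMTOR5 (140.1 ± 1.73). Of 8 genes of transcriptional control 5 were above, led by FNIP2 (47.0 ± 7.52 TPM) and TFE3, with the partner FLCN (28.6 ± 3.26) and FNIP1 (11.1 ± 2.15). MITF was below (0.07 ± 0.05) and TFEC, chosen after its value was seen, was listed at 0.

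Of 5 inhibitors of cysteine cathepsins 2 were above, CSTB (203, 183 and 164 TPM) and the secreted CST3 (152, 129.9 and 182). CSTA, CST6 and CST7, inhibitors of skin and immune cells, had no count in any library. Both inhibitors above the bar were thus at levels close to those of CTSB, with ranges that overlapped it.

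**Figure D5:**
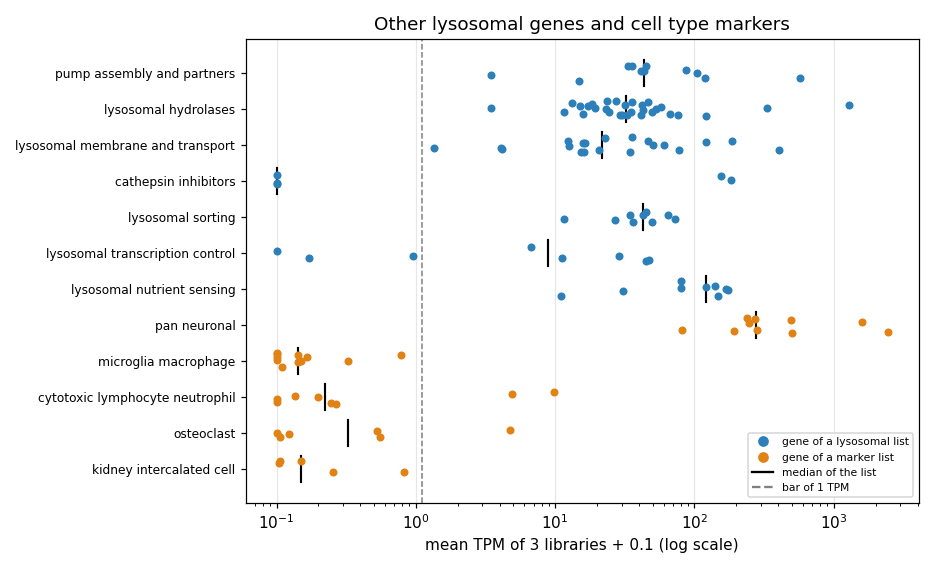
Mean TPM over 3 libraries plus 0.1, on a log axis, for each gene of the 7 lysosomal lists (blue) and the 5 marker lists (orange), with a tick at each list's median and a dashed line at the bar of 1 TPM. The hydrolase, sorting, assembly and nutrient-sensing genes all lie right of the bar, and the microglial and kidney markers lie left of it.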

How the data were processed

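Estimated counts and TPM per gene and library were deposited by the authors. The submitters' processing notes name RSEM and the build GRCh38.p14. The aligner, annotation release, strand setting and RSEM version are not given here. Per the labels' protocols, libraries came from poly(A) RNA with a directional kit and paired reads of 151 bases. Estimated counts of 14 members were not whole (tolerance 0.001), since RSEM divides shared reads.

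Levels were tested with limma 3.58.1 (intercept-only fit on log2(TPM + 0.1) against 1 TPM, eBayes with trend, 2-sided, Benjamini-Hochberg over all genes with signal, threshold 0.05). This scale understates how far low genes lie from the bar. Within-library log2 ratios (pseudocount 0.1) of 18 pairs were tested with exact sign-flip permutations, with adjusted p of 0.281 to 0.5, so none could pass 0.05. A ratio was read as different from 0 where its sign was shared by all libraries and its mean exceeded 2 SD; this held for 14, of which 4 have a gene at 0 in a library. Such ratios are set by the pseudocount and are not printed, with LAMP5 over LAMP3 as the exception, among the alternatives. The spread came from edgeR 4.0.16 (TMM, counts rounded to whole numbers). Isoform shares and levels between genes use TPM.

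All members could be named, as could the 4 highest genes of each other list, all of lists of 5 or fewer, and list members called on the other side of the bar. Markers listed at 0 and CSF1R are also named. The rule for the members reads names alone, but that rule and the lists were set up with earlier results of these data known. Alternatives were nuclear TPM, CPM, pseudocounts of 1 and 0.01, filters on low counts, other size factors and leaving out each library. Gene positions and promoters came from RefSeq tables on GRCh38.p14, which matched 44 and 30 members by symbol.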

Additional observations from a re-analysis of the deposited data

How the results depend on the processing

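The count of members above the bar was 28, and 28 to 29 under every alternative run, each library left out included. The count below was 8 and ran from 6 to 9 with a library left out. With genes of a mean count of at least 10 it was 0, because the 8 genes are then not fitted. With genes at 0 included it was again 8, with CTSF and CTSG in place of ATP6V0A4 and LAMP5. On CPM 4 directions turned: ATP6V1C2 (0.0645) and LAMP3 (0.0692) stood over a bar of 1 CPM, both undecided, ATP6V1G2 over ATP6V1G1 was -0.18, and CTSD over CTSB was -0.35. On CPM the V1 over V0 ratio was -0.13 and no longer over 2 SD from 0, ATP6V1G2 held 46.9% of its subunit and ATP6V0E2 97.0%. With a library left out the log2 ratio of ATP6V1G2 over ATP6V1G1 ran from 0.00575 to 0.105, that of LAMP1 over LAMP2 from 0.28 to 0.63, and that of LAMP5 over LAMP3 (-2.03 ± 1.12) from -2.50 to -1.41. The last, set by the pseudocount in replicate 3 where LAMP5 is at 0, was -2.36 on CPM and -0.68 with a pseudocount of 1, each over 2 SD from 0, and -3.27 with a pseudocount of 0.01. The median log2 difference of the members in replicate 3 was 0.0374 with TMM and 0.0616 with relative-log-expression scaling, against -0.12 on TPM, and in replicate 2 it was -0.11 with the latter against 0.02. The cause was not tested for any of these. Of 772 values under alternatives 736 were classed as the same as in the main run. For counts of genes this class allowed some change, since 6, 7 and 9 members below were classed with 8. No paired analysis was possible because the series has 1 group. All 8 members called below rest on 25 or fewer counts over the 3 libraries, so depth limits their order.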

Other observations

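Genes of neutrophil granule proteins that are known to be expressed together were not at like levels. AZU1, a granule protein without protease activity, was at 11.3, 10.1 and 7.62 TPM, and PRTN3, proteinase 3, at 6.08, 4.24 and 4.01, both above 1 TPM (limma, adjusted p = 2.98e-07 and 1.47e-05). ELANE and CTSG had no count in any library and MPO, chosen after its value was seen, was at 0.07, 0.04 and 0 TPM. Genes beside the members were also measured. ATP6AP1-DT, a long noncoding RNA named for its divergent position to ATP6AP1, was at 12.1, 8.41 and 10.3, and ATP6V0D1-DT at 1.62, 1.33 and 0.81.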
